A study of Homo sapiens with 6 samples.

Results

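The integrin genes described here are 10 subunits of the cell surface receptors that hold a cell to its surrounding matrix, out of 16623 genes measured in MDA-MB-231 cells. The members are ITGA2, ITGA3, ITGA5, ITGA6, ITGAV, ITGB1, ITGB3, ITGB4, ITGB5 and ITGB8, and they were taken by name and matched by NCBI Gene ID. All 10 were found in the files, 5 encoding α subunits and 5 encoding β subunits. MDA-MB-231 is an established human breast cancer cell line of the triple-negative type, which lacks the estrogen and progesterone receptors and HER2 amplification. The cells, grown attached to the dish, received either the solvent DMSO or PCI-24781, a pan-HDAC inhibitor, which blocks the enzymes that remove acetyl groups from histones. The 6 groups were DMSO, 100 nM and 200 nM PCI-24781 at 24 h, and the same 3 conditions at 48 h. Each group held 1 bulk RNA library, so no difference below has a replicate check, no p-value was calculated, and every comparison is a description of those libraries. In bulk RNA, fewer cells of a type and less RNA per cell cannot be told apart.

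An integrin is a pair of an α and a β chain, and the pair decides which matrix protein is bound. ITGB1 is the common partner of ITGA2, a collagen receptor chain, of ITGA3 and ITGA6, which bind laminins, and of ITGA5, which binds fibronectin. ITGAV pairs with ITGB1, ITGB3, ITGB5 or ITGB8 to bind vitronectin, fibronectin or the latent form of TGF-β, and ITGA6 with ITGB4 forms the core of hemidesmosomes, the anchors of epithelial cells to the basement membrane. Inside the cell, talins and kindlins switch the pairs to their active state, and focal adhesion kinase, Src kinases and paxillin-type adaptors carry their signals.

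Values are FPKM, fragment counts scaled to transcript length and library size, so that levels can be compared between genes on a length-corrected scale. Differences are given as log2((FPKM + 1)/(FPKM + 1)), which understates the change of genes with low values. A gene passed the filter on low values when 1 or both libraries of a comparison reached an FPKM of 1, and a gene that passed was counted as higher or lower at a difference of at least 2-fold on that scale. In each of the 5 comparisons 9 of the 10 members passed, and the one that did not was ITGB8. ITGB3 passed at 24 h only through the treated libraries, and between the DMSO libraries only through DMSO 48 h.

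The steps between low FPKM values put the libraries at approximately 16100000 to 18800000 fragments. All 6 markers fixed for MDA-MB-231, VIM, CD44, AXL, EGFR, MSN and PLAU, had at least 35.12 FPKM in every library, whereas ESR1 and PGR, the hormone receptors of luminal breast cells, did not exceed 0.04. Of the 6 luminal markers, ERBB3, from 3.54 to 5.72, and FOXA1, from 1.28 to 1.75, reached an FPKM of 1 in every library. The 2 treated libraries at 48 h differed in the genes raised at 24 h. These were the 523 genes higher by at least 2-fold at 200 nM 24 h, with a median there of 1.26. In the 200 nM library 498 of them exceeded DMSO 48 h, with a smaller median of 0.37. Among all genes past the filter, 5947 of 11665 did so. In the 100 nM library 441 of the 523 fell below DMSO 48 h, with a median of -0.30, beside 6028 of 11514 genes. Both counts rest on the same DMSO 48 h library. The labels were used as given. Whether those of DMSO 48 h and 100 nM 48 h are right was not tested. An exchange of the pair would turn the sign of the 100 nM 48 h differences and change the reference of the 200 nM 48 h ones. It would also change the library compared with 24 h in DMSO and at 100 nM. The main differences at 48 h are therefore also given against DMSO 24 h.

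Promoter sequences were taken from RefSeq (GRCh38.p14), which held 7 of the 10 members in the table used. ITGA3, ITGB3 and ITGB4 were not among them. The 250 bases before the start of the gene are shown for ITGB1, the member with the highest level, ITGB8, the member with the lowest, and ITGA2, whose level differed more between the times than between the doses. Capitals mark GC boxes, searched as GGGCGG on both strands, so that a box on the other strand reads CCGCCC.
ITGB1, chr10:32958231-32958480, minus strand: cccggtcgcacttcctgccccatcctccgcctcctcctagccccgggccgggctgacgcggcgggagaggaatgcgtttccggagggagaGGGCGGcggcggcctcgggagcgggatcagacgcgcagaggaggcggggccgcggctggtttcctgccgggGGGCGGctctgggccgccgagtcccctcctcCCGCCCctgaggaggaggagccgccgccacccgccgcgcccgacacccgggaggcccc
ITGB8, chr7:20330650-20330899, plus strand: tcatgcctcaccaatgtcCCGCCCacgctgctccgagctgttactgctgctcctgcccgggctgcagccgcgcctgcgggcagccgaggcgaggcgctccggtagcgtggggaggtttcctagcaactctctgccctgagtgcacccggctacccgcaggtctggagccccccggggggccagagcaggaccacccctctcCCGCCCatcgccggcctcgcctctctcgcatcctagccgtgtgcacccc
ITGA2, chr5:52989102-52989351, plus strand: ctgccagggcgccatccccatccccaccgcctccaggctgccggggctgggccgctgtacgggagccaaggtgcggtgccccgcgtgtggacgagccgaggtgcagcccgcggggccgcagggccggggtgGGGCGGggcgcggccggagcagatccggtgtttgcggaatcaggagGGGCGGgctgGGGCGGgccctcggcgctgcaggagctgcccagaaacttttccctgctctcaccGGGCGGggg
The ITGA2 promoter held 4 GC boxes, that of ITGB1 held 3, and those of ITGB8 and ITGB5 held 2 each. ITGA5 had 1, and ITGA6 and ITGAV had 0. In all, 5 of the 7 member promoters held a GC box, against 61.7% of the 13286 promoters of genes in the files and 42.3% of all 27303 promoters of that length. The GC content was 78.4% for ITGB1, 76.4% for ITGA2 and 71.2% for ITGB8, beside a median of 63.6% over the genes in the files, whereas ITGA6 and ITGB5 had 50.8% and 52.8%. The AP-1 motif TGANTCA, searched on both strands, was found in 0 of the 7 windows, in 4.50% of the promoters of genes in the files and in 6.60% of all promoters. The motif TATAAA was found in 1 of them, ITGA6, and in 6.98% and 11.1% of these promoter sets. CCAAT was found in 1 of them, ITGB8, and in 34.5% and 33.0%. These matches describe letters in a window and say nothing on whether a factor binds there.

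The levels of the members spanned several orders of magnitude. ITGB1 (chromosome 10, 33189246 to 33247293, minus strand, coordinates of the files, whose processing notes name hg19) had by far the highest mean FPKM, 1291. It was 1163.05, 1242.55 and 1409.22 in DMSO, 100 nM and 200 nM at 24 h, and 1275.72, 1120.71 and 1533.43 at 48 h. Its highest value was 1.37 times its lowest, the narrowest spread of the 10 members. ITGA3 followed with a mean of 306 FPKM, and ITGA6, ITGB5, ITGA2 and ITGA5 with 66.9, 51.7, 31.4 and 27.2. ITGAV and ITGB4 had means of 19.2 and 19.1. ITGB3 had 4.43 and ITGB8 0.328. Over the 6 libraries the ranges of ITGB1 and ITGA3, of ITGA3 and ITGA6, of ITGA5 and ITGAV, and of ITGB3 and ITGB8 did not overlap. Every other pair of neighbours in that order had overlapping ranges, ITGB4 and ITGB3 included, since ITGB4 was 10.00 in DMSO 24 h and ITGB3 was 10.38 at 200 nM 48 h.

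**Figure D1:**
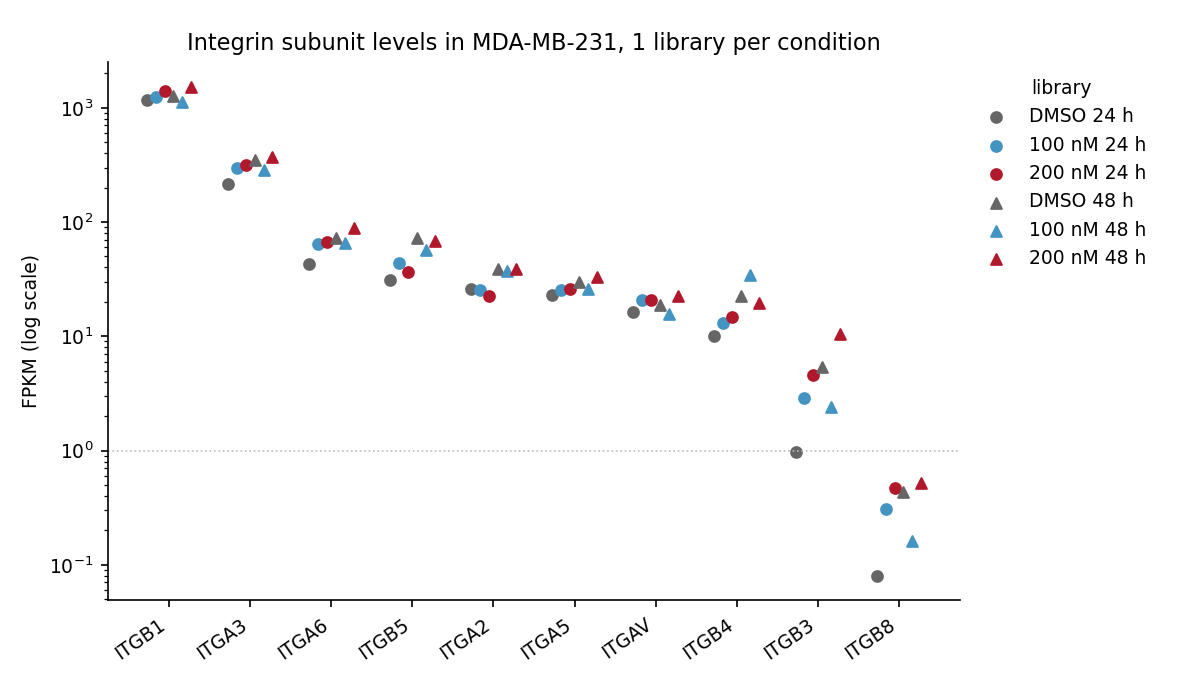
FPKM of the 10 integrin members (y axis, log scale) in each of the 6 libraries, 1 point per library, ordered by mean level. Circles are 24 h and triangles 48 h, the dotted line marks an FPKM of 1, and ITGB3, from 0.98 to 10.38, and ITGB8, from 0.08 to 0.52, spread most.

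Among the α subunits, the laminin receptor chain ITGA3 (chromosome 17, 48133332 to 48167849, plus strand) made up between 66.4% and 69.8% of the summed FPKM of the 5 α members in each library. The 24 h levels in DMSO, 100 nM and 200 nM were 216.60, 300.06 and 314.82, and the 48 h levels were 348.22, 285.87 and 371.47. Thus DMSO 24 h was the lowest library, and the differences against DMSO of the same time were 0.47 and 0.54 at 24 h but -0.28 and 0.09 at 48 h.

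ITGA6 (chromosome 2, 173292082 to 173371183, plus strand), the other laminin receptor chain, followed the same order of libraries as ITGA3 at 24 h. It had 43.27, 63.99 and 67.01 FPKM in DMSO, 100 nM and 200 nM at 24 h, and 72.80, 65.00 and 89.26 at 48 h. Both doses were above DMSO at 24 h, by 0.55 and 0.62, and at 48 h 100 nM was below it, by -0.16, and 200 nM above it, by 0.29. With DMSO 24 h as the reference, the 48 h differences of ITGA6 were 0.58 and 1.03. The ratio of ITGA3 to ITGA6 was highest in DMSO 24 h, at 5.01, and lowest at 200 nM 48 h, at 4.16.

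ITGA2 (chromosome 5, 52285156 to 52390609, plus strand), the chain that binds collagen, was split by time and not by dose. It had 26.01, 25.49 and 22.35 FPKM at 24 h and 38.53, 37.48 and 38.52 at 48 h, in the order DMSO, 100 nM and 200 nM. The 3 libraries at 48 h all lay above the 3 at 24 h. Its differences against DMSO of the same time were between -0.21 and 0.00, and those of 48 h against 24 h were 0.55 in DMSO, 0.54 at 100 nM and 0.76 at 200 nM.

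ITGA5 (chromosome 12, 54789045 to 54813244, minus strand), the fibronectin receptor chain, varied by 1.45 times over the libraries. It had 22.76, 25.32 and 25.85 FPKM at 24 h and 30.15, 26.17 and 32.90 at 48 h. ITGAV (chromosome 2, 187454790 to 187545629, plus strand), the chain shared by the vitronectin receptors, had 16.46, 20.71 and 20.78 at 24 h and 18.85, 15.80 and 22.60 at 48 h. Both were highest at 200 nM 48 h. ITGA5 was lowest in DMSO 24 h and ITGAV at 100 nM 48 h, and none of their differences against DMSO of the same time exceeded 0.32 in either direction.

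Among the β subunits, ITGB3 (chromosome 17, 45331208 to 45390077, plus strand) had the largest differences. It encodes the partner of ITGAV in the classical vitronectin receptor and of ITGA2B in platelets. It had 0.98, 2.86 and 4.62 FPKM in DMSO, 100 nM and 200 nM at 24 h, and 5.34, 2.41 and 10.38 at 48 h. These levels correspond to approximately 71, 206, 332, 379, 179 and 663 fragments in the same order. The approximate 95% Poisson interval was 0.766 to 1.24 FPKM in DMSO 24 h and 2.48 to 3.28 at 100 nM 24 h. Those intervals cover counting error only and rest on an approximate depth. Against DMSO of the same time the 24 h differences were 0.96 and 1.51 and the 48 h differences -0.89 and 0.84, while against DMSO 24 h the 48 h libraries differed by 0.78 and 2.52. Only 200 nM 24 h passed 2-fold against its own DMSO. Against DMSO 48 h, the 24 h libraries were at -0.72 and -0.17, below it at both doses. ITGA2B, the platelet partner, did not exceed 0.18 FPKM, whereas ITGAV was at least 15.80 in every library.

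**Figure D2:**
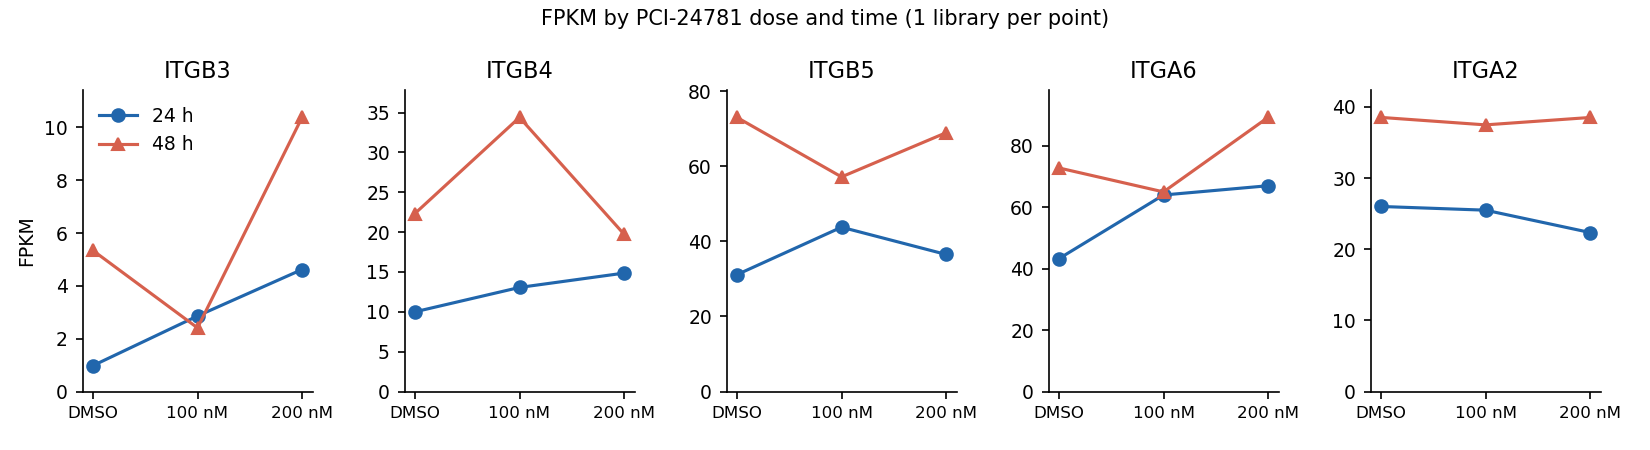
FPKM of 5 members (y axes, linear from 0) by PCI-24781 dose at 24 h (circles) and 48 h (triangles), 1 library per point, joined by lines only to guide the eye. ITGB3 was higher at 200 nM than in DMSO at both times, ITGB4 was highest at 100 nM 48 h, and the 48 h values of ITGA2 all lay above the 24 h values.

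ITGB5 (chromosome 3, 124480795 to 124606152, minus strand), which pairs with ITGAV to bind vitronectin, had 31.11, 43.74 and 36.49 FPKM at 24 h and 72.97, 57.13 and 68.89 at 48 h. As for ITGA2, the 3 libraries at 48 h all lay above those at 24 h. The differences between 48 h and 24 h in DMSO, 100 nM and 200 nM were 1.20, 0.38 and 0.90. Against DMSO of the same time ITGB5 differed by 0.48 and 0.22 at 24 h and by -0.35 and -0.08 at 48 h, and against DMSO 24 h its 48 h values differed by 0.86 and 1.12. The ratio of ITGB5 to ITGB3, the alternative β partners of ITGAV, was 31.7, 15.3 and 7.90 at 24 h and 13.7, 23.7 and 6.64 at 48 h. Hence ITGB5 exceeded ITGB3 in every library, by least at 200 nM at both times.

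ITGB4 (chromosome 17, 73717516 to 73753899, plus strand), the hemidesmosome chain, was the member that departed from the others at 48 h. It had 10.00, 13.06 and 14.86 FPKM in DMSO, 100 nM and 200 nM at 24 h and 22.34, 34.40 and 19.74 at 48 h. It was highest at 100 nM 48 h, the library in which the other 8 members past the filter lay below DMSO 48 h. The 24 h differences at 100 nM and 200 nM were 0.35 and 0.53, and the 48 h differences 0.60 and -0.17. At 100 nM 48 h it ranked at 47 of the 11514 genes past the filter, counted from the highest. With DMSO 24 h as the reference the 48 h differences were 1.69 and 0.91. The ratio of ITGB4 to ITGA6, its only α partner, was between 0.204 and 0.307 in the other libraries and 0.529 at 100 nM 48 h.

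ITGB8 (chromosome 7, 20370725 to 20455382, plus strand), which with ITGAV activates latent TGF-β, was below an FPKM of 1 throughout. It had 0.08, 0.31 and 0.47 FPKM at 24 h and 0.43, 0.16 and 0.52 at 48 h, corresponding to approximately 13, 49, 74, 67, 26 and 73 fragments. The approximate 95% Poisson intervals were 0.0423 to 0.137 FPKM in DMSO 24 h and 0.229 to 0.410 at 100 nM 24 h. As for ITGB3, they cover counting error only, and they rest on an approximate depth and on rounded values. ITGB8 was lowest in DMSO 24 h and highest at 200 nM 48 h, as ITGB3, ITGA3, ITGA5 and ITGA6 were. Its intervals at 200 nM, 0.369 to 0.590 at 24 h and 0.408 to 0.654 at 48 h, overlapped, so its highest library is not resolved.

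**Figure D3:**
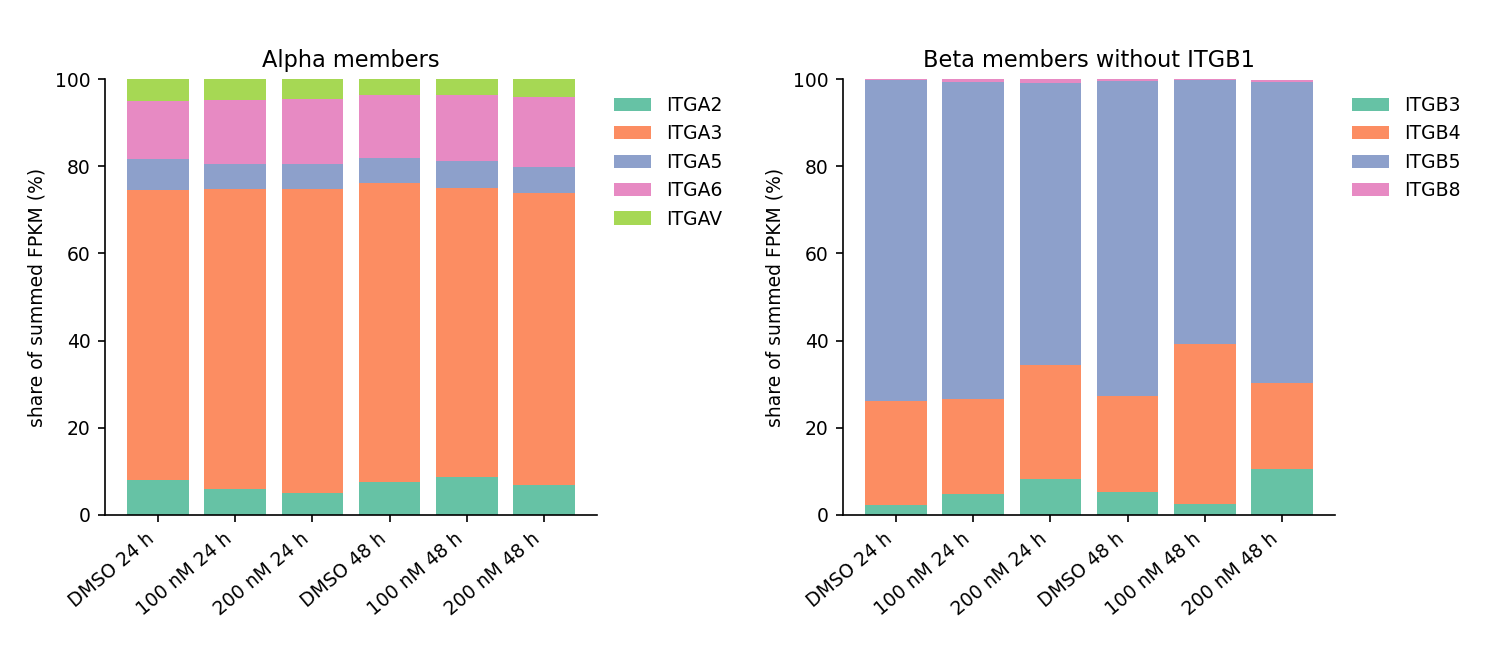
Share of the summed FPKM (y axis, %) taken by each α member (left) and by each β member other than ITGB1 (right) in the 6 libraries, stacked to 100%. ITGA3 held between 66.4% and 69.8% of the α sum, whereas ITGB3 held between 2.32% and 10.4% of the β sum without ITGB1 and ITGB4 reached 36.6% at 100 nM 48 h.

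ITGA3 and ITGB1 held most of the α and β sums in every library. The share of ITGA2 in the α sum was between 4.96%, at 200 nM 24 h, and 8.71%, at 100 nM 48 h. ITGB1 made up between 92.3% and 96.5% of the summed FPKM of the 5 β members. Without it, ITGB5 made up between 60.7% and 73.8%. The 24 h shares of ITGB3 were 2.32%, 4.77% and 8.19%, and its 48 h shares 5.28%, 2.56% and 10.4%. The summed FPKM of the α members was lowest in DMSO 24 h, at 325.1, and highest at 200 nM 48 h, at 554.8, and the ratio of ITGB1 to that sum was between 2.51 and 3.58.

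Taking the members as a group at 24 h, 0 of the 9 past the filter were higher by at least 2-fold at 100 nM, where 1.35% of 11475 genes were. At 200 nM, ITGB3 alone was higher, 1 of 9, beside 4.49% of 11660 genes. No member was lower by 2-fold at either dose, beside 0.131% and 1.48% of all genes. The differences were mostly small and upward, with 8 of 9 members above DMSO and ITGA2 below it at both doses. The median of the 9 was 0.35 at 100 nM and 0.32 at 200 nM, where the median of all genes past the filter was 0.01 at both. With ITGB8 included, the medians were 0.33 and 0.38. The step from 100 nM to 200 nM at 24 h was between -0.26, for ITGB5, and 0.54, for ITGB3, and 0 members were higher by 2-fold, beside 0.343% of genes. At a threshold of 1.5-fold, ITGB3 was higher at 100 nM, 1 of 9 beside 5.58% of genes, and ITGB3 and ITGA6 at 200 nM, 2 of 9 beside 12.5%. At that threshold 0 members were lower at either dose, beside 1.25% and 7.62% of genes.

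At 48 h no member past the filter passed 2-fold on the log2(FPKM + 1) scale in either direction at either dose. The plain FPKM ratio of ITGB3 at 100 nM was 0.45. The share of all genes higher by 2-fold was 0.0608% at 100 nM and 0.206% at 200 nM, and the share lower was 0.408% and 0.0600%. At 100 nM, 8 of 9 members lay below DMSO 48 h, with a median of -0.20, and ITGB4 lay above it. At 200 nM, 6 of 9 lay above DMSO 48 h, with a median of 0.12, and ITGB4 and ITGB5 were the lowest. The median of all genes past the filter was -0.01 at 100 nM and 0.01 at 200 nM. At a threshold of 1.5-fold, ITGB4 was higher and ITGB3 lower at 100 nM, each 1 of 9, beside 0.504% and 1.76% of genes. ITGB3 was higher at 200 nM by that threshold, 1 of 9 beside 1.53%, and 0 members were lower, beside 0.463%. Over all 10 members, ITGB8 included, the medians were -0.22 and 0.11 against DMSO 48 h, and 0.45 and 0.66 against DMSO 24 h. Against DMSO 24 h, ITGB4, at 100 nM, and ITGB3, ITGB5 and ITGA6, at 200 nM, passed 2-fold. The share of all genes past 2-fold was not calculated for that reference, so these calls have no background.

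From 100 nM to 200 nM at 48 h, ITGB3 and ITGB4 moved in opposite directions. ITGB3 was 1.74 higher at 200 nM, at rank 37 of 11694 genes, and ITGB4 was -0.77 lower, with 0.889% of genes below it. ITGB3 was the 1 member of 9 higher by at least 2-fold between the doses at 48 h, where 1.71% of genes were. The other 7 members past the filter were between 0.04 and 0.49 higher.

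**Figure D4:**
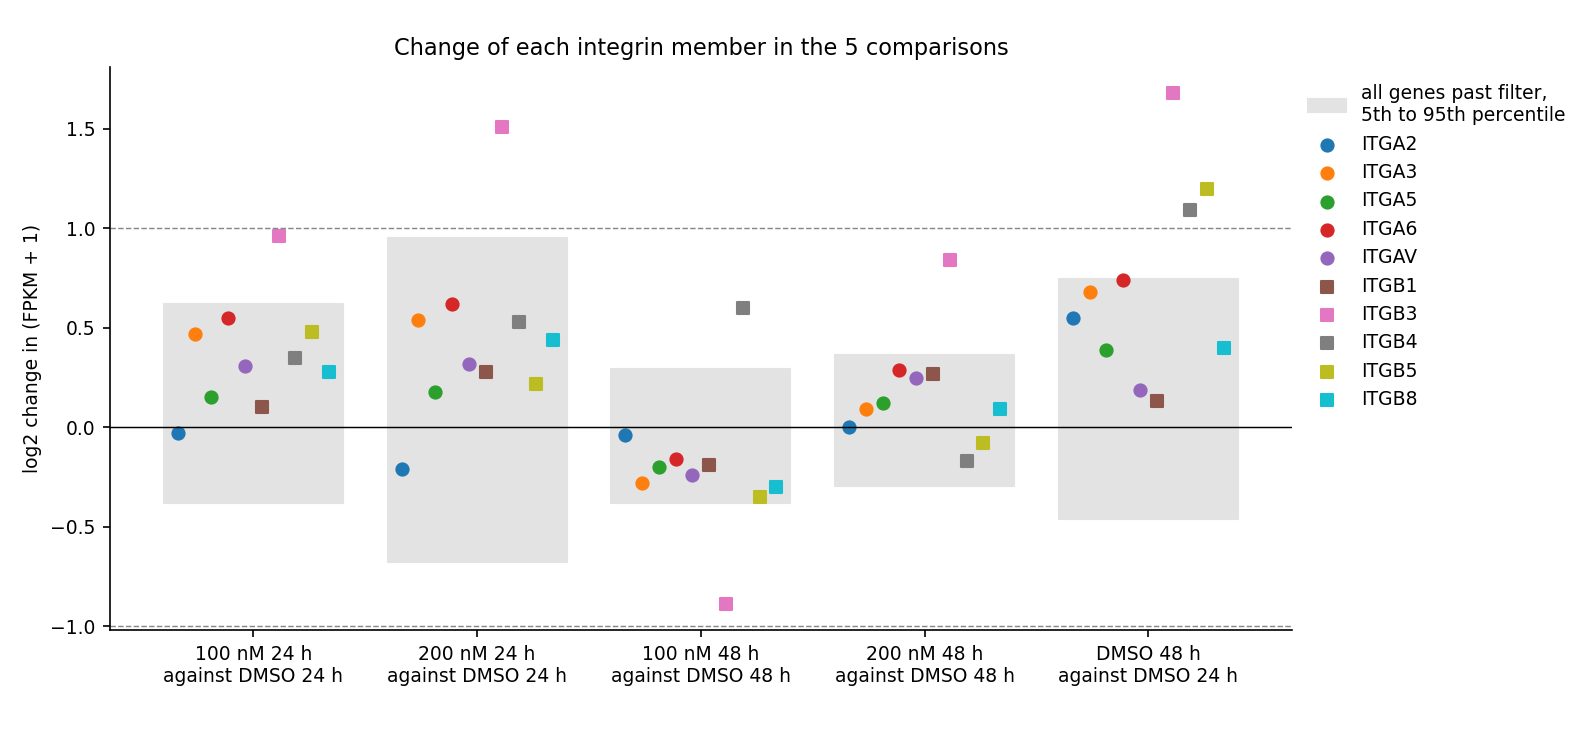
Difference in log2(FPKM + 1) of each member (y axis) in the 5 comparisons, 1 point per gene, circles for α and squares for β subunits. Grey bars span the 5th to 95th percentile of all genes past the filter and dashed lines mark 2-fold, which ITGB3 passed at 200 nM 24 h (1.51) and ITGB3, ITGB4 and ITGB5 passed between the DMSO libraries.

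More members passed 2-fold between the 2 DMSO libraries than in any comparison of PCI-24781 with its own DMSO. In DMSO 48 h, 3 of 9 members were higher by at least 2-fold than in DMSO 24 h, beside 2.49% of 11490 genes, and 0 were lower, beside 0.131%. These were ITGB3, ITGB5 and ITGB4, with differences of 1.68, 1.20 and 1.09. ITGA6, ITGA3, ITGA2 and ITGA5 followed with 0.74, 0.68, 0.55 and 0.39, and ITGAV and ITGB1 with 0.19 and 0.13. ITGB3, at 0.98 FPKM in DMSO 24 h, passed the filter here only through DMSO 48 h. With an FPKM of at least 1 required in both libraries, 2 members were higher by 2-fold, and the share of all genes was not calculated with that filter. At a threshold of 1.5-fold 5 of 9 were higher, beside 8.51% of genes, and 0 were lower, beside 1.95%. All 9 lay above DMSO 24 h, with a median of 0.68 beside 0.00 over all genes past the filter. This comparison shares the DMSO 24 h library with the 24 h comparisons and the DMSO 48 h library with the 48 h comparisons, so a low or high value in either DMSO library enters both. The comparison also rests on the label of DMSO 48 h, which was not tested. The library labelled 100 nM 48 h differed from DMSO 24 h by 0.78 for ITGB3, 0.86 for ITGB5 and 1.69 for ITGB4.

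The library in which a gene was lowest or highest does not rest on a reference. Of the 10 members, 7 were lowest in DMSO 24 h, whereas 27.1% of the 11893 genes that reached an FPKM of 1 in any library were lowest there. The 7 include ITGB8, which did not reach an FPKM of 1 and so is outside those genes. ITGB1 and ITGAV were lowest at 100 nM 48 h, and ITGA2 at 200 nM 24 h. Likewise 7 members, again with ITGB8 included, were highest at 200 nM 48 h, where 15.0% of genes were. For ITGB8 that highest library is not resolved from 200 nM 24 h by counting error. ITGA2 and ITGB5 were highest in DMSO 48 h and ITGB4 at 100 nM 48 h. Within the 200 nM dose all 9 members past the filter were higher at 48 h than at 24 h, with a median of 0.39 beside 0.00 over all genes, and ITGB3 was the 1 member higher by 2-fold, at 1.02, beside 0.748% of genes. Within the 100 nM dose 5 were higher and 4 lower, with a median of 0.02 beside -0.04, and ITGB4 was the 1 member higher by 2-fold, at 1.33, beside 0.961% of genes.

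Of the 16 other integrin subunits, 5 reached an FPKM of 1 in any library. ITGA1, a second collagen receptor chain, had 6.73, 12.12 and 13.92 FPKM at 24 h and 17.90, 12.56 and 25.39 at 48 h. ITGA7, a laminin receptor chain of muscle, had 0.66, 1.47 and 2.64 at 24 h and 2.07, 1.19 and 2.80 at 48 h. Both had their lowest value in DMSO 24 h and their highest at 200 nM 48 h. ITGA7, which passed the filter at 24 h only through the treated libraries, was the only other subunit past 2-fold at 200 nM 24 h, at 1.13. That was 1 of 4 past the filter, beside 4.49% of all genes. Between the DMSO libraries ITGA1 was the only one past 2-fold, at 1.29, 1 of 5 beside 2.49%. ITGA10, also a collagen receptor chain, had 0.72, 0.63 and 0.53 at 24 h and 1.93, 2.97 and 1.39 at 48 h, highest at 100 nM 48 h as ITGB4 was. ITGAE was between 2.35 and 3.43, and ITGB2, the β chain of leukocyte integrins, between 11.17 and 16.50. The α partners ITGAL, ITGAM, ITGAX and ITGAD of ITGB2 were at most 0.61 FPKM, for ITGAX. Of the leukocyte markers CD68 was between 69.59 and 126.20 FPKM, LYZ between 2.37 and 4.54, and CD14 between 0.28 and 1.47. PTPRC was at most 1.01 and CD3E at most 0.04. The 5 leukocyte markers in the files, of 6 listed, summed to between 74.6 and 131. Markers of luminal breast cells, endothelium, platelets and fibroblasts summed to between 5.88 and 8.21, 1.35 and 4.76, 0.630 and 1.41, and 0.770 and 2.91. The endothelial, platelet and fibroblast sums were lowest in DMSO 24 h, the luminal sum at 100 nM 48 h and the leukocyte sum at 200 nM 48 h. Of the fibroblast markers only PDGFRB, from 0.34 to 2.66 FPKM, reached an FPKM of 1, and COL3A1 was highest in DMSO 24 h, at 0.33. Of the 5 platelet markers 3 were in the files, and GP1BA was lowest at 100 nM 24 h, at 0.54. The part of these genes in the differences was not tested.

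The matrix ligands of the integrins were the partner list with the largest differences. Of 24 listed ligands, 18 passed the filter. At 100 nM 24 h, 4 of them were higher by at least 2-fold, TNC, CCN2, THBS1 and LTBP1, beside 1.35% of all genes. At 200 nM 24 h 5 were, TNC, CCN2, THBS1, COL1A1 and CCN1, beside 4.49%. TNC passed the filter at 24 h only through the treated libraries, and between the DMSO libraries only through DMSO 48 h. None was lower. Their median was 0.47 and 0.46. LTBP1 and CCN1 were named after their values were seen. At 100 nM 48 h TNC and CCN2 were lower by at least 2-fold, beside 0.408% of genes, and the median was -0.23, and at 200 nM 48 h 0 passed 2-fold and the median was 0.14. Between the DMSO libraries 6 were higher, beside 2.49% of genes, with a median of 0.50.

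Tenascin C (TNC), a matrix glycoprotein of wounds and tumor stroma, had 0.51, 4.10 and 5.20 FPKM at 24 h and 4.36, 1.09 and 7.63 at 48 h. CCN2, a matricellular protein bound by several integrins, had 88.75, 240.28 and 352.80 at 24 h and 204.78, 80.86 and 294.89 at 48 h. Thrombospondin 1 (THBS1) had 12.40, 28.24 and 44.91 at 24 h and 18.79, 11.10 and 32.94 at 48 h. All 3 lay above DMSO at both doses at 24 h, below it at 100 nM 48 h and above it at 200 nM 48 h, as ITGB3 did. COL1A1, a chain of fibrillar collagen, had 1.66, 2.99 and 6.68 at 24 h and 2.55, 1.65 and 4.72 at 48 h.

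**Figure D5:**
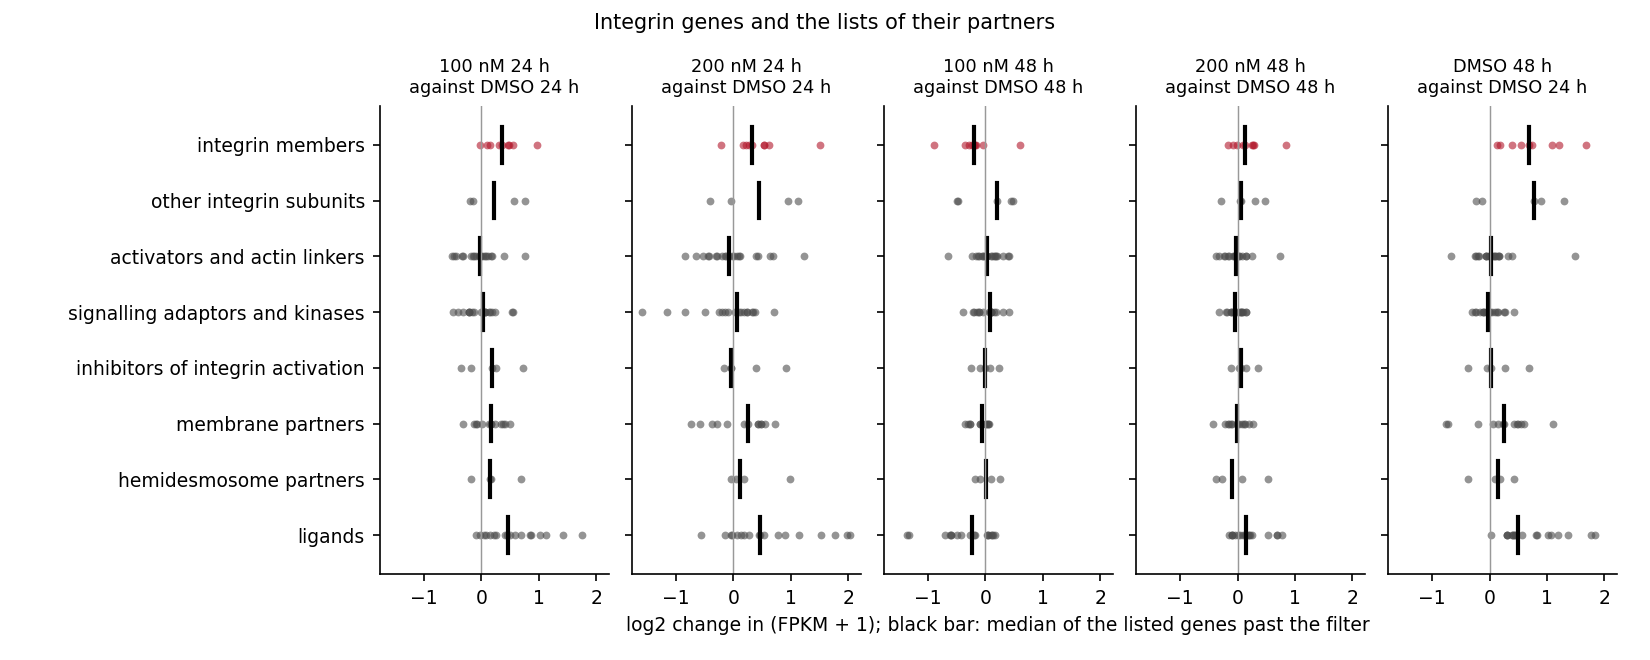
Difference in log2(FPKM + 1) (x axis) of the genes past the filter in each list (rows), 1 point per gene, in the 5 comparisons, with the list median as a black bar. The medians of the integrin members were 0.35, 0.32, -0.20, 0.12 and 0.68 from left to right, and those of the ligands 0.47, 0.46, -0.23, 0.14 and 0.50.

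Genes that act on integrins from inside the cell had medians close to 0. Of the activators and actin linkers, 21 of 24 listed passed the filter, with medians between -0.08 and 0.03 in the 5 comparisons. TNS4, a tensin that binds β tails, was the 1 gene past 2-fold at 200 nM 24 h, at 1.23, beside 4.49% of all genes. It passed the filter at 24 h only through the treated libraries, and had 0.47, 1.49 and 2.44 FPKM at 24 h and 3.10, 1.60 and 5.87 at 48 h. Between the DMSO libraries TNS4 differed by 1.48, the 1 gene of the list past 2-fold there, beside 2.49% of all genes. It passed the filter there only through DMSO 48 h. The kindlin FERMT1 had 4.80, 3.06 and 2.24 at 24 h and between 2.55 and 2.66 at 48 h. TLN2, a talin, differed by 0.69 and the actin linker PARVA by -0.65 at 200 nM 24 h, and neither passed 2-fold.

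Of the 20 signalling adaptors and kinases, 18 passed the filter, with medians between -0.04 and 0.08. At 200 nM 24 h 2 of the 18 were lower by 2-fold, beside 1.48% of all genes, and both encode LIM adaptors of the paxillin family. TGFB1I1 had 40.66, 28.74 and 12.83 FPKM at 24 h and 40.27, 42.07 and 31.91 at 48 h. LPXN, a binding partner of focal adhesion kinases, had 45.04, 47.12 and 19.66 at 24 h and 46.32, 39.72 and 44.20 at 48 h. For both, 200 nM 24 h was the lowest of the 6 libraries. DOCK1, which activates Rac, differed by -0.85 and the Src family kinase FYN by 0.71 at 200 nM 24 h.

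The inhibitors of integrin activation, the membrane partners and the hemidesmosome partners held no gene past 2-fold in the 4 comparisons with DMSO. Their 5, 13 and 4 genes all passed the filter. In the same 4 comparisons 1.35%, 4.49%, 0.0608% and 0.206% of all genes were higher by 2-fold, and 0.131%, 1.48%, 0.408% and 0.0600% lower. DAB2, which competes with talin for β tails, had 11.19, 19.23 and 21.95 FPKM at 24 h and 18.58, 15.48 and 24.11 at 48 h. SHARPIN, ITGB1BP1 and NISCH differed by at most 0.40 in either direction. Among the membrane partners BSG was 0.73 and the tetraspanin CD9 0.55 higher at 200 nM 24 h, whereas SDC1 differed by -0.73 and PLAUR, the urokinase receptor, by -0.58. CD82, a tetraspanin named after its values were seen, was the only gene of these lists past 2-fold between the DMSO libraries, at 1.10. It was 1 of the 13 membrane partners, beside 2.49% of all genes. DST, whose epithelial form links ITGB4 to keratin filaments, had 22.56, 37.11 and 45.64 at 24 h and 24.28, 21.30 and 35.67 at 48 h. PLEC, the other linker of ITGB4, differed by -0.17, -0.04, 0.25 and -0.28 in the 4 comparisons. COL17A1 was between 0.69 and 1.34 FPKM and CD151 between 145.96 and 206.03.

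For ITGB3 and ITGB4, the members with the widest range of log2(FPKM + 1), a scale that compresses the low values of ITGB8, the genes with the most alike pattern over the 6 libraries were sought among 4194 genes by Pearson's r of log2(FPKM + 1). The genes most like ITGB3 were ZNF226 (r = 0.9947), ABCC2 (r = 0.9945) and TNS4 (r = 0.9940), and 316 genes had an r of at least 0.9. Among the members, ITGA3 and ITGA6 had 0.9538 and 0.9530 with ITGB3, and ITGB4 had 0.3538. The genes most like ITGB4 were DUSP4 (r = 0.9968), PGF (r = 0.9881) and TOX2 (r = 0.9878), and 179 genes had an r of at least 0.9. DUSP4, a phosphatase of MAP kinases, had 93.22, 103.93 and 111.67 FPKM at 24 h and 139.88, 171.15 and 134.20 at 48 h. With 6 points that share their libraries these values describe order and size, and carry no test.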

How the data were processed

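RNA of MDA-MB-231 cells given DMSO or PCI-24781 was sequenced, with 1 library for each of the 6 groups of dose and time in the labels. The authors deposited FPKM per gene, rounded to 2 decimals, for the same 16623 genes in each of the 6 libraries. The submitters' processing notes name Bowtie2, RSEM and hg19, and versions are not given in the sources used here. FPKM of genes with several transcripts depends on how RSEM assigned fragments to them. Symbols were matched by NCBI Gene ID to RefSeq, which held 16585 of the genes.

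Differences in log2(FPKM + 1) were computed with Python 3.11.15, numpy 2.4.6 and pandas 2.3.3. The calls were checked on simulated data with large changes, genes of higher level and counting error only. That check does not cover small differences, low values or the spread between cultures. No count test was run, since the values are not counts. Fragment numbers were estimated from the steps of low FPKM in genes with a single transcript of 500 to 1500 bases (scipy 1.17.1), and are approximate. The members and gene lists were chosen with earlier results of these data known. Named were all members, other subunits reaching an FPKM of 1, up to 4 genes per partner list with the largest difference in the 4 comparisons with DMSO, the 3 genes most like the 2 widest-ranging members, and the cell line markers. Exceptions are stated beside the gene. Alternatives were pseudocounts of 0.1 and 0.01, TPM, median-of-ratios factors, other references, filters and a 1.5-fold threshold.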

Additional observations from a re-analysis of the deposited data

Results flagged for a closer look

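For 7 members the difference at 100 nM had opposite signs at 24 h and 48 h, each against DMSO of its own time and each at least 0.1 in size. ITGB3 was at 0.96 at 24 h and -0.89 at 48 h. ITGB5 was at 0.48 and -0.35, ITGA3 at 0.47 and -0.28, ITGA6 at 0.55 and -0.16, ITGAV at 0.31 and -0.24, ITGA5 at 0.15 and -0.20, and ITGB8, which did not pass the filter, at 0.28 and -0.30. At 200 nM the signs were opposite for ITGB4, at 0.53 at 24 h and -0.17 at 48 h. With 1 library per condition the difference between the times was not tested.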

How the results depend on the processing

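No paired analysis was possible because the groups share fewer than 2 replicate numbers. A fit of dose with time as a block, whose error would be the dose-by-time difference, was not run. Leaving out a replicate was not possible with 1 library per group. Medians here are over all 10 members, and were 0.33, 0.38, -0.22 and 0.11 as reported. With DMSO of the other time as the reference, the median in the 4 comparisons with DMSO, in the order of the plot of differences, was -0.23, -0.16, 0.45 and 0.66. In the last 3 of these the members higher by 2-fold were then 0, 1 and 3, and ITGB3 at 200 nM 24 h turned from 1.51 to -0.17. With the mean of both DMSO libraries the medians were -0.02, 0.18, 0.00 and 0.33 in the same order, and the members higher were 0, 1 and 1. The sign turned in 23 of 40 differences with the first reference and in 13 of 40 with the second. Pseudocounts of 0.1 and 0.01, TPM and median-of-ratios factors turned 0 of 50. With both pseudocounts and with TPM, 1 member was higher at 100 nM 24 h and 1 lower at 100 nM 48 h, in each case ITGB3. The median between the DMSO libraries was 0.72 with both pseudocounts, from 0.62. The largest moves were those of ITGB8 with a pseudocount of 0.01, from 0.44 to 2.42 at 200 nM 24 h and from 0.40 to 2.29 between the DMSO libraries. At a 1.5-fold threshold 1, 2, 1, 1 and 5 members were higher in the order of that plot, and 1 was lower at 100 nM 48 h. The share of all genes past 1.5-fold was 5.58%, 12.5%, 0.504%, 1.53% and 8.51% for higher and 1.76% for lower at 100 nM 48 h. With an FPKM of at least 1 required in both libraries, 0 members were higher at 200 nM 24 h, since ITGB3 was at 0.98 in DMSO 24 h. Between the DMSO libraries 2 were then higher, from 3. The share of all genes was calculated only with the main settings, at 2-fold and 1.5-fold. The member counts under the other references, pseudocounts, scalings and filters therefore have no background. The cause of the other changes was not tested.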
